A study of Mus musculus with 21 samples.

Results

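The locus of 2700069I18Rik, an antisense gene on mouse chromosome 3, was described by the places where the histone methyltransferase Ash1L was found on it in differentiating muscle cells. Its members were the merged Ash1L peak regions that the authors had assigned to 2700069I18Rik, 6 of the 259 merged regions of the deposited list. The regions were selected on measured values, since each one is a called Ash1L peak and the locus was picked from the peak lists, so their number, widths and peak values are given as a description. The assignment gave 2 other genes to some of the same regions, namely Zfhx4 and the transcript RP24-257J5.2, which the annotation used here calls Gm10748.

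Trithorax proteins, to which Ash1L belongs, help to keep developmental genes switched on and oppose silencing by Polycomb complexes. The enzyme adds methyl groups to histone H3 at lysine 36. An antisense gene is transcribed from the strand opposite to a neighbour, here Zfhx4, which encodes a large transcription factor with zinc fingers and homeodomains.

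The data came from C2C12, a mouse line of C3H muscle myoblasts that fuse into myotubes once serum is lowered. All 3 samples were chromatin precipitated with a rabbit antibody to Ash1L at day 1 of differentiation, after 24 hours in medium with 2% donor horse serum. Their titles name them replicates 1, 2 and 3. Peaks were called by the authors in each replicate alone against the same input sample, so the lists share that control. A peak list gives the bounds of each peak and, for each summit (a local maximum of signal within the peak), 1 value read as −log10 of its q value, so that a value of 1.3 corresponds to the authors' threshold of 0.05. The lowest value was 1.3 in replicate 2, close to that threshold, and 2.30 and 2.38 in replicates 1 and 3, so the reading of the column rests on replicate 2 and on what the peak caller writes. The lists give neither the position of a summit nor read counts, so the depth of a replicate is unknown. As peak lists hold no expression, the identity of the cells could not be checked against muscle markers.

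The 6 regions ran over 20461 bp, chr3:5203969-5224429 in mm10, and covered 14350 bp, or 70.1% of that span. Most of the cover lay in 2 wide regions, region 3 and region 6 counted from the left, which together held 12330 bp or 85.9% of it. The other 4 were each under 700 bp wide, and the locus thus consisted of a pair of broad domains with short satellites. No other merged region of chromosome 3 lay to the left of the locus, and the next to the right began 53191081 bp away.

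Region 1, chr3:5203969-5204256, was 288 bp wide and stood 2933 bp from region 2. Region 2, chr3:5207190-5207619, was 430 bp wide and was followed by a gap of 2702 bp. Both stood apart in position, and each was called in 1 replicate. Region 3, chr3:5210322-5216395, was 6074 bp wide. Region 4, chr3:5216532-5217212, was 681 bp wide and began after a gap of 136 bp. From here to the right end of the locus the gaps were all short. Region 5, chr3:5217466-5218086, was 621 bp wide and lay 253 bp from region 4. Region 6, chr3:5218174-5224429, was 6256 bp wide and lay 87 bp from region 5. Regions 3 to 6 therefore formed a nearly closed block of 14108 bp in which the gaps took 476 bp and the regions 96.6%. By width, region 6 ranked 9th and region 3 ranked 11th among the 259 merged regions, whereas regions 4, 5, 2 and 1 ranked 98th, 107th, 148th and 229th.

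A region counted as present in a list where a peak of that list shared at least 1 bp with it. Of the 6 regions, 4 were present in at least 2 lists and 2 in all 3 lists. Over all merged regions, 47.5% were present in at least 2 lists and 13.5% in all 3. Nothing is read from the difference, since the locus was picked from these lists. The 2 regions in all 3 lists were the wide ones. Regions 4 and 5 were called in replicates 1 and 3, region 1 in replicate 1 alone and region 2 in replicate 3 alone. Replicate 2 thus decided which regions were in all 3 lists, and without it 4 regions were in both remaining lists. Without replicate 1 or without replicate 3, 2 regions were in both remaining lists.

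Of the covered 14350 bp, 9492 bp (66.1%) lay in peaks of all 3 lists, 2804 bp (19.5%) in 2 lists and 2054 bp (14.3%) in 1 list. Over all merged regions, 37.0%, 32.4% and 30.6% of the covered length lay in 3, 2 and 1 lists, and nothing is read from the difference here either. All bases covered by 3 lists lay in the wide regions. They made up 78.4% of region 3, as a single stretch of 4764 bp at chr3:5211425-5216188. In region 6 they made up 75.6%, in stretches of 663, 466 and 3599 bp.

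The replicates drew the same domains with different breaks. Replicate 1 had 8 peaks at the locus covering 12689 bp, replicate 2 had 2 covering 9763 bp and replicate 3 had 6 covering 13686 bp. These were 4.91%, 7.27% and 4.60% of the length of the respective list, and 8 of 240, 2 of 35 and 6 of 228 of its peaks. The peaks of replicate 2 were nested within those of replicate 3, which covered their whole length, and replicate 1 covered 97.2% of it. Conversely, replicate 2 covered 74.8% of the length in replicate 1 and 71.3% of that in replicate 3. Replicates 1 and 3 shared 12025 bp, which was 94.8% of the first and 87.9% of the second. Over the whole lists, replicate 3 covered 96.3% and replicate 1 covered 93.0% of the length in replicate 2, so the nesting of replicate 2 was general to its list. Replicate 2 covered 48.4% of the whole list of replicate 1 and 43.5% of that of replicate 3. Replicate 3 covered 87.2% of the list of replicate 1, and replicate 1 covered 75.7% of that of replicate 3.

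The outer edges of the wide regions differed more between replicates than the edges that face each other. The right end of region 3 was at 5216395, 5216188 and 5216331 in replicates 1, 2 and 3, a spread of 207 bp. Its left end was at 5210678, 5211425 and 5210322, a spread of 1103 bp. In region 6 the left end was at 5218174, 5218392 and 5218177, a spread of 218 bp. Its right end was at 5224148, 5223390 and 5224429, a spread of 1039 bp. Replicate 2 had the shortest peaks at all 4 ends. Without it the outer ends differed by 356 bp in region 3 and 281 bp in region 6, and the inner ends by 64 and 3 bp.

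Region 6 was a single peak in replicates 2 and 3, of 4999 and 6253 bp. In replicate 1 the same stretch was parted into 4 peaks of 881, 466, 3998 and 272 bp. The gaps between them measured 112, 159 and 87 bp, and the first and the second of these lay inside the peaks of both other replicates. Region 3 was parted in replicate 3 alone, by a gap of 190 bp between peaks of 888 and 4932 bp, which replicate 1 covered. In replicate 2 the peak of region 3 began to the right of that gap.

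Replicate 1 listed 35 summits at the locus, replicate 2 listed 10 and replicate 3 listed 39. They were 4.49%, 7.75% and 4.49% of all summits of the lists. Summits stood at 2.76, 1.02 and 2.85 per kb of peak at the locus, beside 3.02, 0.961 and 2.92 per kb over each whole list, so the sparser summits of replicate 2 were a feature of its list as a whole. The 2 wide regions carried nearly all of them. Region 3 held 16, 5 and 18 summits in replicates 1, 2 and 3, and region 6 held 16, 5 and 17.

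The highest −log10 q value at the locus was 33.9 in replicate 1, 14.4 in replicate 2 and 38.3 in replicate 3, and in every list it belonged to region 6. Region 3 came close behind with 31.0, 12.1 and 36.8. Since the value also depends on depth, levels are not ranked between replicates. The medians repeated this order in replicate 2 alone. Over all its summits, region 3 had a median of 18.8, 8.45 and 22.3, and region 6 a median of 13.5, 8.97 and 22.1. Region 3 thus had the higher median in replicate 1, while in replicates 2 and 3 the medians of the pair were close.

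Among the satellites, region 4 stood out. Its value was 16.0 in replicate 1, and in replicate 3 its 2 summits had 4.42 and 16.8. Region 5 had 7.09 in replicate 1 and 7.49 in replicate 3. The regions seen in a single list had the lowest peak of the locus in that list, with 5.04 for region 1 in replicate 1 and 5.22 for region 2 in replicate 3. The summits nearest to the calling threshold, with 1.74 and 1.81, were listed in replicate 2 within the wide regions. By the highest value of a peak, the peak of replicate 1 with the value 33.9 ranked 20th of its 240 peaks, that of replicate 2 ranked 12th of 35 and that of replicate 3 ranked 18th of 228. The peaks of regions 1 and 2 ranked 207th of 240 and 170th of 228. By width, the main peak of region 3 ranked 4th, 11th and 13th in the lists of replicates 1, 2 and 3, and that of region 6 ranked 14th, 9th and 5th.

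Within the wide regions the values varied widely along the order in which the summits are listed. In region 3, replicate 1 listed 8.0 for the first summit, 31.0 for the 7th, 9.70 for the 11th and 26.7 for the 16th, the last. The main peak of replicate 3 began with 7.49 and had 36.8 at the 8th, 9.96 at the 11th and 32.3 at the 17th and last. In listed order, both lists thus had a high group of summits, a low one and a second high one. Replicate 2, with 5 summits, listed 12.1, 9.80, 4.11, 1.74 and 8.45. Its lowest value was the 4th, whereas that of replicate 1 was the 2nd, with 5.62, and that of the main replicate 3 peak the first. In region 6, replicate 3 listed 30.9 for the 3rd of 17 summits, 13.4 for the 7th, 38.3 for the 10th and 10.5 for the last, so that here too a low value stood between high ones. In the longest replicate 1 peak of that region, 33.9 was the 4th of 10 values, and the last 2 were both 7.76. Replicate 2 listed 8.89, 11.8, 8.97, 14.4 and 1.81 for region 6. As summit positions are missing, whether the listed order follows position along a region was not tested. Nor was it tested whether a given summit lay at the same base in different replicates.

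Many summits had exactly the same value. In replicate 1, each of the 35 summits of the locus shared its value, to all decimals given, with another summit of the list, which holds 321 distinct values over 779 summits. In replicate 3 this held for 32 of 39, with 392 distinct values over 868 summits. In replicate 2 it held for 1 of 10, with 125 distinct values over 129 summits. Values of replicates 1 and 3 were thus often tied, and the size of the steps between them was not measured.

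2700069I18Rik (ENSMUSG00000086224) is annotated as antisense on the minus strand of chr3:5177586-5220841, over 43256 bp. Its outermost transcription start site (TSS), at 5220841, and the start of its other transcript, at 5220823, both lay in region 6. Region 6 extended 3588 bp upstream of the gene, and all other regions lay inside it. Regions 3, 4 and 5 began 4446, 3629 and 2755 bp downstream of the TSS, and regions 2 and 1 began 13222 and 16585 bp downstream of it. Ash1L regions covered 24.9% of the gene, all of it in the part toward the start. The distal 26383 bp, 61.0% of the gene, held no region. Its first exon, 172 bp long in the longer form, lay wholly in region 6, and the other exons shared no base with a region. The nearest of these, at chr3:5202638-5202737, ended to the left of region 1. Regions 1, 2, 4 and 5 were wholly intronic.

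Zfhx4 (ENSMUSG00000025255) lies on the plus strand at chr3:5218526-5415857, so that its 5′ end overlaps that of 2700069I18Rik over 2316 bp, head to head. The whole overlap lay in region 6. This region began 352 bp upstream of the outermost Zfhx4 TSS and held 4 starts of the gene, at 5218526, 5218546, 5218554 and 5221505. Region 5 ended 440 bp upstream of that TSS. RefSeq places the starts of Zfhx4 at 5218218, 5218554, 5221195 and 5221196, also in region 6, so both distances are shorter with it. On the other side, cover ended 17240 bp before the exon that follows and 17286 bp before the annotated start codon at 5241716. Thus 2.99% of Zfhx4 was covered, and its remaining 191428 bp held no region. In each replicate the GENCODE starts of both genes lay in peaks, whereas the RefSeq start at 5218218 lay to the left of the replicate 2 peak. The GENCODE starts of the 2 genes shared 1 peak in replicates 2 and 3, with highest values of 14.4 and 38.3. In replicate 1 they fell into separate peaks, one with 21.6 over the 3 starts of Zfhx4 near 5218526 and one with 33.9 over the starts of 2700069I18Rik and the start of Zfhx4 at 5221505.

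Gm10748 (ENSMUSG00000103881), a single-exon transcript of the class that awaits experimental evidence, lies on the plus strand at chr3:5212838-5215216, within an intron of 2700069I18Rik. All of its 2379 bp lay in region 3, in the stretch covered by all 3 lists. Its left end was 2516 bp from the left end of the region and its right end 1179 bp from the right end, so the domain was wider than the transcript on both sides. Its 2 starts, at 5212838 and 5214763, were the only GENCODE starts in region 3. Of the 6 regions, 2 held a TSS, beside 23.6% of all merged regions, and 1 held starts on both strands, beside 3.86%. With protein-coding transcripts alone, or with RefSeq transcripts in place of GENCODE, region 6 was the only one of the 6 with a start. The nearest protein-coding genes that do not overlap the locus were Hnf4g, which encodes a nuclear receptor, 1545916 bp to the left, and Pex2, which encodes a peroxisome biogenesis protein, 335758 bp to the right. Neither has a region assigned.

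The base composition of the locus, which played no part in the choice of its members, lay on the GC-poor side of the merged regions. Over the 6 regions the GC content was 42.7%, and the ratio of observed to expected CpG was 0.382. The median of the 242 merged regions on assembled chromosomes was 47.5% for GC and 0.417 for the ratio. Region 3 had 43.6% GC and a ratio of 0.365, and region 6 had 43.4% and 0.457. Among the 242 they ranked 151st and 153rd by GC and 145th and 104th by the ratio. The satellites ranked lower. Regions 1, 2, 4 and 5 had 34.4%, 36.3%, 41.9% and 34.5% GC and ranked 217th, 208th, 169th and 216th by it. Their CpG ratios were 0.236, 0.0711, 0.101 and 0.219, with ranks of 191, 228, 224 and 196. All 6 regions were thus below the median GC content, and all but region 6 below the median ratio. None of the 6 regions as a whole had the GC content of at least 50% and the ratio of at least 0.6 that are commonly asked of a CpG island, whereas 51 of the 242 did.

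CpG-rich stretches nonetheless lay in or at the edge of the wide regions. Windows of 200 bp with those properties merged into 7 stretches over the span and 10 kb on either side. They measured 2835 bp in all, and 95.1% of it lay in the regions, which made up 35.5% of the bases searched. A merged stretch need not meet both criteria as a whole. The one at chr3:5210184-5210530 had a ratio of 0.525, and those at chr3:5210794-5211092 and chr3:5221451-5221762 had 47.8% and 48.1% GC. Region 3 held 2 whole stretches and part of another, and region 6 held 4. One of the latter, chr3:5220313-5220535, met the criteria with 1 CpG and consists largely of CT repeats, in which G is rare. The flanks of 10 kb had 4.70 and 4.80 CpG per kb and no such stretch, beside 17.3 CpG per kb in region 3 and 21.4 in region 6. Regions 1, 2, 4 and 5 had 6.94, 2.33, 4.41 and 6.44 CpG per kb. The uncovered gap of 136 bp between regions 3 and 4 had 22.1. The widest stretch, chr3:5218943-5219975, was 1033 bp long with 57.9% GC and 62 CpG, and lay between the starts of the 2 genes, in introns of both. Another, of 398 bp at chr3:5218182-5218579, held the 3 starts of Zfhx4 near 5218526, and one of 312 bp at chr3:5221451-5221762 held its start at 5221505. No stretch held the starts of 2700069I18Rik.

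The first and the second gap of replicate 1 in region 6 both lay in the widest CpG-rich stretch. At chr3:5219633-5219791, the 159 bp of the second gap had 76.1% GC, 21 CpG and no bases masked as repeats. The first gap, at chr3:5219055-5219166, had 56.2% GC and 7 CpG, and the last, outside the stretch at chr3:5223790-5223876, had 33.3% GC and none. Whether base composition had a part in where replicate 1 was parted was not tested.

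To show this contrast, the sequences of the plus strand of GRCm38 are given for 4 windows, with each CpG in capitals. The 300 bases with most CpG within the widest stretch of region 6, chr3:5219579-5219878, held 31 CpG and spanned the 159 bp gap of replicate 1. Region 1 is given whole, with 2 CpG, and the middle of region 2, chr3:5207255-5207554, with 1, as the regions called in a single list. The last and smallest peak of replicate 1 in region 6, chr3:5223877-5224148, held 1 CpG and lay in an intron of Zfhx4.
Region 6, CpG-rich window: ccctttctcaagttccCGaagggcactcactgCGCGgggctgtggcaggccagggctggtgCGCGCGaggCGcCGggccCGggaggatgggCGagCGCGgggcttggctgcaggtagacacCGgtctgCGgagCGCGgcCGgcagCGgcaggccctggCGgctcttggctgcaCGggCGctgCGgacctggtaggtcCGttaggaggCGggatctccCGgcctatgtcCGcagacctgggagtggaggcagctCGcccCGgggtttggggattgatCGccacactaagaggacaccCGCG
Region 1: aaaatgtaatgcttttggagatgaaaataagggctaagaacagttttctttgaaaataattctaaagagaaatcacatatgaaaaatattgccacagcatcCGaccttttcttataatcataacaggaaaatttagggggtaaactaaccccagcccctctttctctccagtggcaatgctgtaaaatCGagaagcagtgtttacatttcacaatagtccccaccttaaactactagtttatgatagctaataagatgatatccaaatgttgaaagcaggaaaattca
Region 2, middle: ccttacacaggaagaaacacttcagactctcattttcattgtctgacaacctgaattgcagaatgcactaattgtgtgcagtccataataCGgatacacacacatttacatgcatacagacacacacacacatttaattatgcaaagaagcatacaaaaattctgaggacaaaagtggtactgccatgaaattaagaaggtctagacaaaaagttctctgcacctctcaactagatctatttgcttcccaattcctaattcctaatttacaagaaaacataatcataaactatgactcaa
Region 6, small peak of replicate 1: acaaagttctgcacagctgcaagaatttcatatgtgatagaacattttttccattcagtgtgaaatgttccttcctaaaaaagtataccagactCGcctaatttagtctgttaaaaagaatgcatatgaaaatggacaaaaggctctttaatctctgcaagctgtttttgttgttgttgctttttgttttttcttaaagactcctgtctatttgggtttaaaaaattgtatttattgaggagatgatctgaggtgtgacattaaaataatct

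A pair of E-box sequences, of the kind bound by muscle transcription factors such as MyoD, were counted on both strands. The letters CAGCTG occurred 8 times in the 6 regions, 4 times each in regions 3 and 6 and not in the satellites, which is 0.557 per kb beside 0.408 per kb over the 242 regions. Cut into tiles of 300 bases, 17.8% of the 45 tiles of the locus held it, beside 11.7% of the 966 tiles of all 242 regions. CACCTG, or CAGGTG on the other strand, occurred 7 times, or 0.488 per kb beside 0.469. Of these, 4 were in region 3, 2 in region 6 and 1 in region 4. CACCTG stood in 8.89% of tiles at the locus beside 12.2% of all. With counts this small, nothing is read from these differences. Of the 4 windows given in full, the small peak of replicate 1 in region 6 held CAGCTG once and none held CACCTG.

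Nearly all exact words of 32 bases in the locus occurred only once in the genome. Even so, 23.9% of the covered bases of the locus were masked as repeats, so these words do not measure its repeat content. Of its 14164 words of 32 bases, 629 (4.44%) occurred more than once in the genome, both strands counted. Regions 1, 2, 4 and 5 had none, region 3 had 3.43% and region 6 had 6.78%. Joined where they share bases, these words formed 12 stretches, all of them overlapped by peaks of all 3 lists. The longest was 154 bp, at chr3:5220330-5220483, and the words with most copies, 1040712 and 818778 in the genome, came from stretches rich in dinucleotide repeats of AC or GT and of AG.

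By covered length the locus had rank 3 of 93 loci when genes that share a merged region are counted as 1 locus. By number of summits it ranked 4th, 3rd and 3rd in replicates 1, 2 and 3, and by highest value 10th, 10th and 11th. As 77, 21 and 73 loci had a peak in these lists, the rank by value in replicate 2 was near the middle of the loci called there. Among the loci of at least 3 regions nearest to it in covered length were 2010111I01Rik with 11393 bp in 11 regions and Pax7 with 9586 bp in 6. Pax7 encodes a transcription factor of muscle precursor cells. The highest values at Pax7 were 15.8, 6.27 and 24.0 in replicates 1, 2 and 3, each below that of the 2700069I18Rik locus in the same replicate. At 2010111I01Rik they were 24.4, 11.0 and 43.4, below it in replicates 1 and 2 and above it in replicate 3. No test was made of these differences, as all of these loci were chosen by their peaks.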

How the data were processed

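Ash1L ChIP-seq peaks of 3 replicates were analysed; the libraries of RNA, histone marks, input and IgG were not used here. Per the labels and the study's methods, the authors aligned trimmed reads to mm10 (BWA-MEM), dropped duplicates, blacklisted regions and reads not uniquely mapped, and called narrow peaks with MACS2 in each replicate (q value under 0.05). The value of the deposited lists has no column name and was read as −log10 of the q value. The study's methods speak of merged broad peaks, but the deposited merged list equals the 3 narrow lists merged; the authors' gene assignment, used here, names a gene for 199 of its 259 regions. The members and lists were chosen with earlier results of these data known.

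Rows with the same bounds were joined into 1 peak. Positions are 1-based and were compared with GENCODE M21 and the GRCm38 reference, the same assembly as mm10 (Python 3.11.15, numpy 2.4.6). Of 2700069I18Rik, Zfhx4 and Gm10748, 0 were matched in the RefSeq promoter table, a separate and incomplete list. The RefSeq starts used here came from the RefSeq transcripts, which include 2700069I18Rik and Zfhx4. Sequence ranks cover the 242 merged regions on assembled chromosomes. Interval steps were tested on simulated data. Named were 2700069I18Rik, the genes sharing its regions, the nearest protein-coding gene on each side, and the 3 loci of at least 3 regions nearest in covered length, 1 of which is not reported here. No test was run. Alternatives were a value of at least 5, each replicate left out, 50% cover of a region, regions within 500 bp joined, protein-coding transcripts, and loci of regions within 10 kb; RefSeq transcripts were added after seeing the data.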

Additional observations from a re-analysis of the deposited data

How the results depend on the processing

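Of 61 comparisons with an alternative, 25 could not change by construction. Of the other 36, 27 gave a value within 1.5 times the reported count or within 1 SD of the replicates, and 9 moved further. A highest value of at least 5 per peak changed none of the results of the locus, as each of its peaks passes it, nor its rank by covered length. Asking for 50% of a region to be covered left 4 regions in at least 2 lists and 2 in all 3. With regions within 500 bp joined, regions 3 to 6 became 1, so that 3 regions remained, 1 of them in at least 2 lists and 1 in all 3. Leaving out each replicate in turn gave 6 regions each time, spans of 17240 to 20461 bp and covered lengths of 12960 to 14350 bp. It gave 2 to 4 regions in at least 2 lists, 2 to 4 in every list used, and 9492 to 12025 bp in every list used, the upper values all without replicate 2. The 6 regions were not the same ones: without replicate 1, region 1 was absent and region 3 fell into 2, and without replicate 3, region 2 was absent and region 6 fell into 2. Regions with a TSS numbered 1 with protein-coding transcripts and 1 with RefSeq transcripts, the latter chosen after seeing the data. The rank by covered length was 3 of 93 and became 4 of 119 with loci of regions within 10 kb.

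The lists give no summit positions. So the share of summits near one of another list (50, 100 or 200 bp), the distance from the highest summit to a TSS, and base composition in windows around summits were not computed and their alternatives not run. No paired analysis was possible because no groups were compared. The lists hold no counts, so the depth of replicate 2, with the fewest peaks, is unknown, and an absent peak does not show absence of Ash1L.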
